A study of Oryctolagus cuniculus with 15 samples.

Results

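Rabbit corneal keratocytes embedded in 3D fibrillar collagen (3DF) were compared with keratocytes on collagen-coated dishes that were lysed in the dish (2DC_L). The members are all 3 libraries labelled as 3D fibrillar collagen with 100000 cells per matrix and all 3 labelled as the lysis control of the 2D collagen-coated condition, 6 of the 15 libraries in the series. All cells were first-passage primary keratocytes from New Zealand white rabbit eyes, freed of epithelium and endothelium by scraping, and all were kept for 6 days in the same defined medium without serum. In 3DF the cells were mixed into type I bovine collagen before it set, and in 2DC_L they were plated on a dish that carried a thin type I collagen coat. Several dishes or matrices of a single experiment were pooled for each library, so that the spread between libraries is a spread between experiments.

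The matrices of 3DF were incubated in digestion medium with collagenase and hyaluronidase, and the released cells were pelleted and rinsed before lysis. The 2DC_L dishes received lysis buffer directly. Dimensionality, collagen structure, the stiffness of the support, cell number per area and the digestion step therefore all differ between 3DF and 2DC_L, and their shares in any difference cannot be told apart within this pair. The digested collagen-coated dish (2DC, 3 libraries) shares its culture format with 2DC_L and its digestion step with 3DF, though its cells were not pelleted, and its values are set beside those of 3DF and 2DC_L where they bear on a gene. The comparisons with 2DC share libraries with the comparison of 3DF and 2DC_L and are not independent of it.

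Keratocytes are the resident cells of the corneal stroma, where they lay down the collagen fibrils and the keratan sulfate proteoglycans on which transparency rests. After injury they can enter the cell cycle, build actin stress fibres and secrete a repair matrix rich in fibronectin, tenascin-C and type III collagen. Separately, cells of many kinds switch on a set of immediate early genes, led by the FOS, JUN and EGR families, within minutes of a mechanical, enzymatic or growth factor stimulus. The transcripts of these genes are short-lived, so their level at lysis can reflect the handling just before it as well as the culture. The part of each was not tested here.

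Between 18770056 and 24224540 reads per library were counted in 3DF and between 17973130 and 30518172 in 2DC_L. Correlations of log2 CPM between libraries of the same condition ranged from 0.975 to 0.992. In 3DF, replicate 1 stood apart, with correlations of 0.975 and 0.978 to replicates 2 and 3, which correlated at 0.990 with each other. COL1A1 alone took 2.96% to 3.75% of the counts in 3DF and 7.63% to 8.83% in 2DC_L. The keratocyte label was checked against its defining markers, and KERA, LUM and DCN were at 2502 FPKM or more in all 6 libraries. Levels are given below as the authors' FPKM (fragments scaled to gene length and library depth), 1 value per library in the order of the replicate numbers, whereas fold changes come from edgeR on the counts and are given with ± 1 SE. A bulk level cannot tell fewer cells of a type from less RNA per cell. Of the genes named below, COL1A1, KIAA0101, MATN4, TGFBI, TIMP1, TIMP3, PTX3, KERA, CD34, KDR and DDIT3 overlap a gene annotated on the opposite strand, and their values are less certain because the strand setting of the counting is not given in the sources used here.

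Of 13551 genes that passed the filter on low counts, 1386 were differentially expressed genes (DEGs, adjusted p of at most 0.05 and |log2 fold change| of at least 1), or 10.2%. In 3DF, 575 genes were higher (4.24% of the genes tested) and 811 were lower (5.98%). At any fold change, 3161 genes (23.3%) had an adjusted p of at most 0.05. The groups of libraries did not overlap in FPKM for 1381 of the 1386 DEGs, against 44.8% of all genes tested. The excess of lower genes rests on the scaling. When libraries were scaled by total counts alone, the median over all genes moved from 0.01 to 0.18 (log2) and the split became 835 higher (6.16%) and 643 lower (4.75%). Without 3DF replicate 1 the split was 587 higher (4.29%) and 756 lower (5.53%), and 961 genes were DEGs in each of the 6 fits that left out a library. Fits of the same kind called 36 genes (0.265%) between 2DC and 2DC_L, 35 higher and 1 lower (0.00735%) in 2DC, and 1020 genes (7.56%) between 3DF and 2DC.

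**Figure D1:**
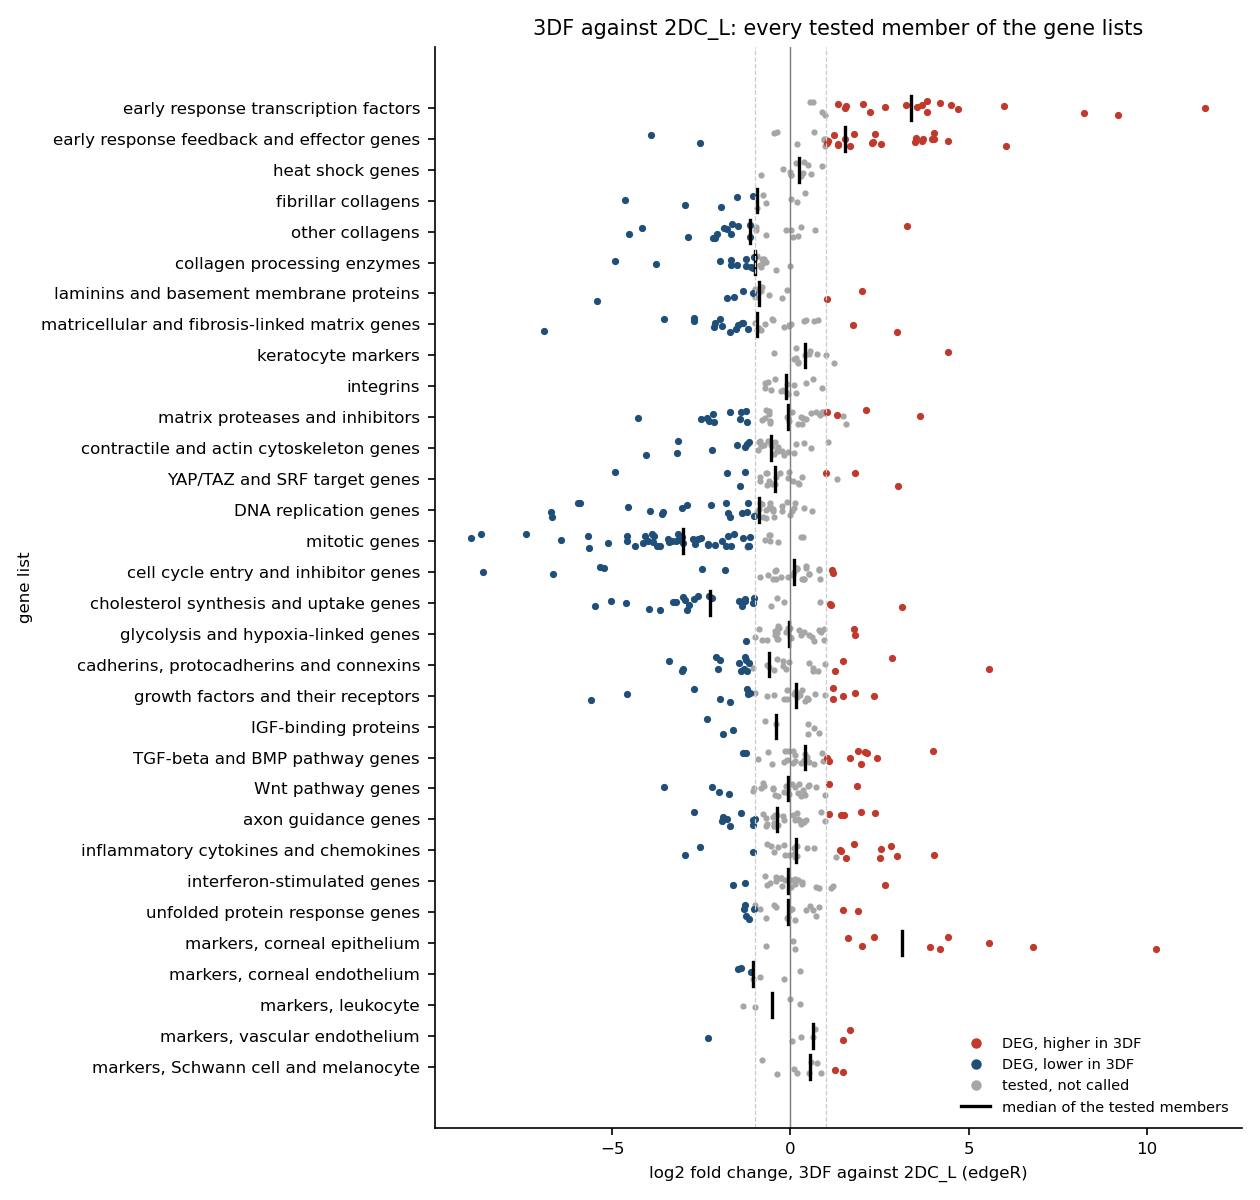
Each point is a tested gene of 1 of 32 gene lists (vertical axis) at its log2 fold change in 3DF against 2DC_L (horizontal axis, edgeR), coloured by its call, and black bars are list medians. The mitotic and cholesterol lists sit to the left, with medians of -3.03 and -2.25, and the early response transcription factors and corneal epithelium markers to the right, with medians of 3.40 and 3.12. The integrin, heat shock and leukocyte lists have no called member. Only 12 of 25 epithelium markers were tested, and those detected in 3DF alone passed the filter only through 3DF.

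Among all genes tested, 4.24% rose and 5.98% fell, the shares against which each list count below is to be read. Of the 32 lists, the mitotic genes had the largest share that fell in 3DF. Of 50 mitotic genes tested, 42 fell and 0 rose, with a median log2 fold change of -3.03 against 0.01 for all genes. Of 40 DNA replication genes, 18 fell and 0 rose, with a median of -0.87. MKI67, the proliferation antigen of the chromosome surface, measured 0.00417, 0.00462 and 0 FPKM in 3DF and 0.934, 1.05 and 2.54 FPKM in 2DC_L. MKI67 was lower in 3DF 435-fold (95% exact counting interval 120.1 to 3597), an interval that covers counting error only. CENPF, a kinetochore protein, was at 0, 0.00453 and 0 FPKM in 3DF and 0.582, 0.606 and 1.91 FPKM in 2DC_L, and was lower 588-fold (95% exact counting interval 105 to 23269). CDK1, the kinase that drives entry into mitosis, measured 0.0308, 0 and 0.0382 FPKM in 3DF against 3.05, 4.4 and 6.43 FPKM in 2DC_L, and was lower 190.1-fold (95% exact counting interval 52.3 to 1575). For all of these genes the libraries of 3DF lay far below those of 2DC_L, which themselves were at only a few FPKM.

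Other mitotic genes were still detected in 3DF. TOP2A, the topoisomerase that untangles sister chromatids, measured 0.452, 0.167 and 0.17 FPKM in 3DF and 2.84, 3.04 and 6.11 FPKM in 2DC_L, a log2 fold change of -3.88 ± 0.44 (adjusted p = 0.000309, edgeR). CCNB1, the mitotic cyclin, had 0.146, 0.484 and 0.0362 FPKM in 3DF and 1.87, 2.28 and 6.09 FPKM in 2DC_L, a log2 fold change of -3.87 ± 0.69 (adjusted p = 0.00375, edgeR). CCNA2, the cyclin of S and G2 phase, stood above CCNB1 in 3DF, with 4.0, 1.87 and 3.26 FPKM against 6.25, 6.05 and 7.91 FPKM. CCNA2 had a log2 fold change of -1.14 ± 0.27 (adjusted p = 0.0159, edgeR), and this call was lost when libraries were scaled by total counts alone (-0.97), without 3DF replicate 2 (-0.88) and without 2DC_L replicate 3 (-1.01, adjusted p = 0.0648). MYBL2, a transcription factor of the late cell cycle, had counts in only a single 3DF library and measured 1.62, 1.85 and 1.52 FPKM in 2DC_L.

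The replication genes spanned a wide range of fold changes. TK1, thymidine kinase, dropped from 12.8, 13.5 and 10.6 FPKM in 2DC_L to 0.0932, 0.241 and 0.27 FPKM in 3DF, a log2 fold change of -5.94 ± 0.30 (adjusted p = 5.83e-06, edgeR). CDC45, a subunit of the replicative helicase, measured 0.017, 0.0189 and 0 FPKM in 3DF and 1.29, 2.09 and 1.14 FPKM in 2DC_L, and was lower 124-fold (95% exact counting interval 33.9 to 1028). MCM5, a subunit of the MCM ring that licenses origins, had 1.43, 2.08 and 1.73 FPKM in 3DF and 7.23, 10.6 and 6.51 FPKM in 2DC_L, a log2 fold change of -2.22 ± 0.23 (adjusted p = 0.000225, edgeR). MCM2, of the same ring, changed less and sat at the limit of the call, with a log2 fold change of -1.01 ± 0.18 (adjusted p = 0.00413, edgeR) that lost its call without 3DF replicate 1 (-0.90), without 2DC_L replicate 2 (-0.83) and with total counts as the scale (-0.84). PCNA, the sliding clamp, stayed abundant at 25.8, 20.7 and 21.8 FPKM in 3DF against 33.7, 42.4 and 34.5 FPKM in 2DC_L. PCNA had a log2 fold change of -0.69 ± 0.14 (adjusted p = 0.0078, edgeR), too small a fold change for a DEG.

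The regulators of cycle entry were split. Of 31 tested, 6 fell and 2 rose, with a median of 0.09. E2F1 and E2F2, transcription factors that switch on the S-phase programme, were among those that fell. E2F1 measured 0.018, 0.0995 and 0.0669 FPKM in 3DF and 2.6, 3.12 and 1.85 FPKM in 2DC_L, a log2 fold change of -5.35 ± 0.45 (adjusted p = 6.71e-05, edgeR). E2F2 had no count in 3DF and 0.426, 0.452 and 0.614 FPKM in 2DC_L, a level at least 15.7-fold lower in 3DF. By contrast, the G1 kinase CDK4 had 45.3, 49 and 49.5 FPKM in 3DF and 51, 51.4 and 47.8 FPKM in 2DC_L, a log2 fold change of -0.06 ± 0.11 (adjusted p = 0.721, edgeR). Both genes that rose restrain division, and neither was called higher in 3DF than in the digested dish. CDKN1A, the cyclin kinase inhibitor p21, measured 76.5, 165 and 111 FPKM in 3DF and 51.2, 68.1 and 38 FPKM in 2DC_L, a log2 fold change of 1.16 ± 0.29 (adjusted p = 0.0186, edgeR). BTG1, an antiproliferative protein, had 37.4, 28.2 and 27.1 FPKM in 3DF and 13.2, 13.4 and 14.1 FPKM in 2DC_L, a log2 fold change of 1.19 ± 0.15 (adjusted p = 0.000551, edgeR). CDKN1A was no longer called with the library-name prefix as a block (1.00, adjusted p = 0.239), without 3DF replicate 2 (0.84), without 2DC_L replicate 1 (1.14, adjusted p = 0.0664) or without 2DC_L replicate 3 (0.97). CDKN1B, the inhibitor p27, had a log2 fold change of 0.38 ± 0.11 (adjusted p = 0.0409, edgeR), under the limit on the fold change.

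The cell cycle genes of the digested dish varied widely between libraries. MKI67 measured 0.199, 1.09 and 3.36 FPKM in 2DC and CDK1 0.551, 3.68 and 10.4 FPKM, with replicate 1 low in both. Of the 90 replication and mitotic genes tested in 3DF against 2DC_L, 60 fell and 0 rose. None of 89 was called between 2DC and 2DC_L, where only 0.265% of all genes tested were. Between 3DF and 2DC, 39 of 82 were lower in 3DF, against 4.32% of all genes tested. Of the 29 entry and inhibitor genes tested between 3DF and 2DC, 0 were higher and 3 lower in 3DF, with a median of 0.06. Among all genes tested, 3.24% were higher there.

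**Figure D2:**
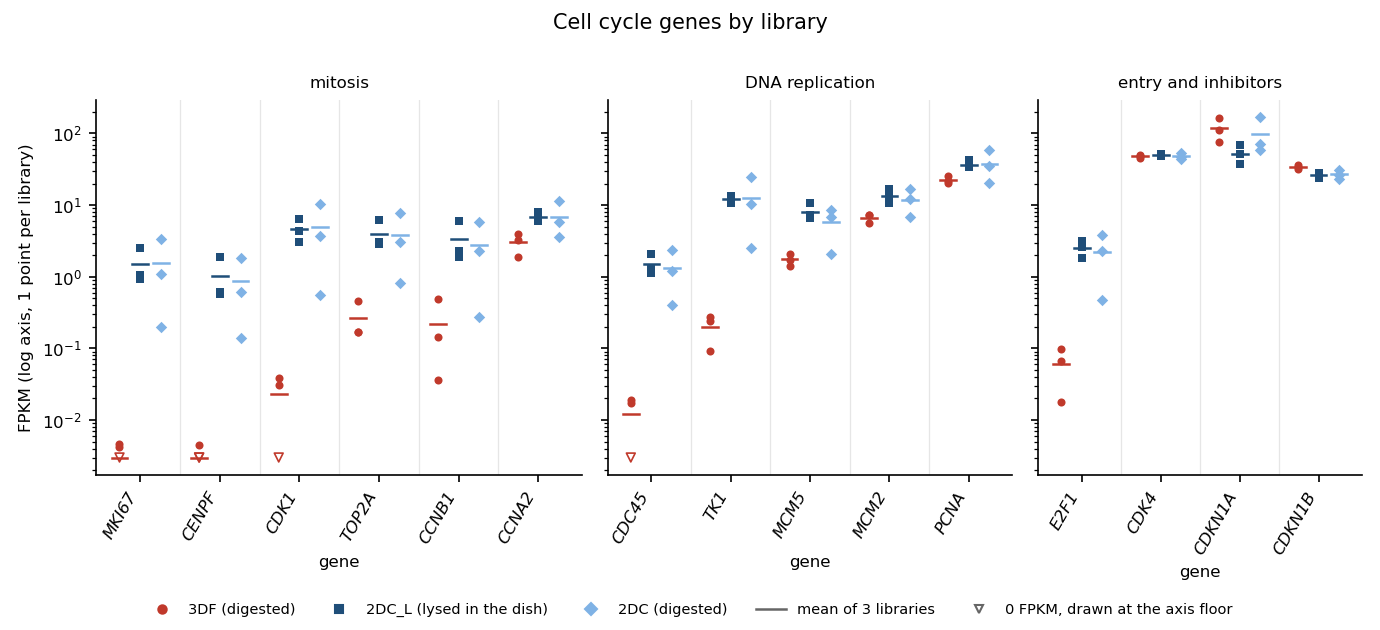
FPKM of cell cycle genes (vertical axis, log scale) in each library of 3DF, 2DC_L and 2DC, with horizontal lines at the means. All 3DF libraries lie below all 2DC_L libraries for the mitotic and replication genes shown and for E2F1, CDK4 overlaps, and CDKN1A and CDKN1B lie above, at 76.5 to 165 and 32.1 to 36.0 FPKM in 3DF.

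Most genes of cholesterol synthesis and uptake fell in 3DF. Cells make cholesterol from acetyl-CoA through HMG-CoA and squalene, and the transcription factor SREBF2 raises this pathway when membrane sterol is low. When sterol is plentiful, liver X receptors raise the exporters ABCA1 and ABCG1 and the ubiquitin ligase MYLIP. Of 28 genes tested, 21 fell and 3 rose, with a median log2 fold change of -2.25. The 3 that rose were ABCA1, ABCG1 and MYLIP. The list was written with earlier results of these data known, so this split is a description. Sterol was not measured, and its part was not tested. With libraries scaled by total counts alone, or without 3DF replicate 1, 19 still fell and 3 rose.

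At the entry to the pathway, HMGCS1, the HMG-CoA synthase, measured 7.49, 5.33 and 5.24 FPKM in 3DF and 38.7, 41.4 and 49.99 FPKM in 2DC_L, a log2 fold change of -2.85 ± 0.18 (adjusted p = 1.54e-05, edgeR). Middle steps fell as well. FDPS, which makes farnesyl diphosphate, measured 4.45, 5.48 and 5.33 FPKM against 57, 63 and 71.9 FPKM, a log2 fold change of -3.65 ± 0.15 (adjusted p = 1.75e-06, edgeR). SQLE, the squalene epoxidase, was tightly grouped in each condition, at 2.63, 2.77 and 2.65 FPKM in 3DF and 37.8, 44.5 and 44.8 FPKM in 2DC_L, a log2 fold change of -3.98 ± 0.13 (adjusted p = 6.33e-07, edgeR). The largest fall in the list was that of TM7SF2, a sterol reductase of the late pathway, from 100.5, 87.5 and 116 FPKM in 2DC_L to 1.91, 1.99 and 2.91 FPKM in 3DF, a log2 fold change of -5.49 ± 0.21 (adjusted p = 9.08e-07, edgeR). MSMO1, the methylsterol oxidase, had 11.8, 8.23 and 8.71 FPKM in 3DF and 80.9, 94.9 and 105 FPKM in 2DC_L.

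Among the regulators in the list, SREBF2 itself measured 22.1, 27.7 and 26.6 FPKM in 3DF and 71.1, 76.1 and 60.6 FPKM in 2DC_L, a log2 fold change of -1.44 ± 0.14 (adjusted p = 0.000167, edgeR). INSIG1, which retains the SREBP complex in the endoplasmic reticulum and is an SREBP target, had 13.4, 10.6 and 11.1 FPKM in 3DF and 77.5, 78.3 and 109 FPKM in 2DC_L, a log2 fold change of -2.91 ± 0.17 (adjusted p = 1.3e-05, edgeR). STARD4, a carrier of cholesterol inside the cell, fell from 4.0, 4.48 and 5.21 FPKM in 2DC_L to 0.157, 0.294 and 0.0976 FPKM in 3DF. Every 3DF library was below every 2DC_L library for these genes.

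In the other direction, ABCA1, which loads cholesterol onto apolipoproteins, rose from 11.8, 9.9 and 10.5 FPKM in 2DC_L to 102, 77.4 and 99.95 FPKM in 3DF, a log2 fold change of 3.12 ± 0.16 (adjusted p = 5.83e-06, edgeR). MYLIP measured 192, 200.1 and 209 FPKM in 3DF and 103, 96.5 and 77.8 FPKM in 2DC_L, a log2 fold change of 1.12 ± 0.14 (adjusted p = 0.000579, edgeR), and ABCG1 1.3, 1.54 and 2.08 FPKM and 0.74, 0.665 and 0.845 FPKM, a log2 fold change of 1.13 ± 0.23 (adjusted p = 0.0065, edgeR). ABCG1 lost its call without 3DF replicate 3 (0.92), and MYLIP, at the limit of the fold change, without 2DC_L replicate 3. FADS2, a fatty acid desaturase in the same list, had 85.5, 92.2 and 96 FPKM in 3DF and 50.02, 55.4 and 48.8 FPKM in 2DC_L, a log2 fold change of 0.83 ± 0.12 (adjusted p = 0.00112, edgeR) that missed the limit on the fold change. APOE, the apolipoprotein that accepts cholesterol from ABCA1, measured 622, 1105 and 1019 FPKM in 3DF and 251, 188 and 422 FPKM in 2DC_L, a log2 fold change of 1.68 ± 0.30 (adjusted p = 0.004, edgeR). APOE was among the 6 DEGs with the largest gain in FPKM.

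None of the 28 cholesterol genes was called between 2DC and 2DC_L, where their median was -0.27. Of all genes tested, only 0.265% were called there. Between 3DF and 2DC, 18 of the cholesterol genes were lower and 3 higher in 3DF, with a median of -1.91. Among all genes tested, 4.32% were lower and 3.24% higher in 3DF than in 2DC. ABCA1 measured 14.8, 13.9 and 14.4 FPKM in 2DC.

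**Figure D3:**
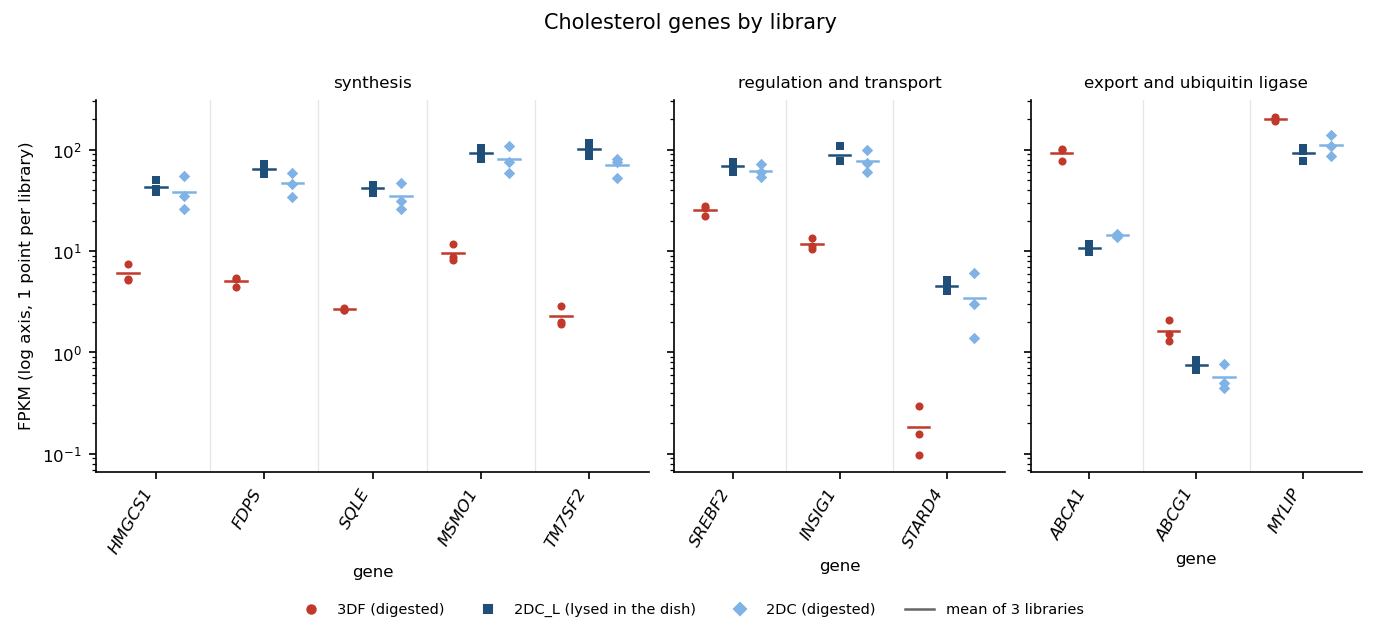
FPKM of cholesterol genes (vertical axis, log scale) in each library of 3DF, 2DC_L and 2DC, with horizontal lines at the means. For the enzymes, SREBF2, INSIG1 and STARD4 the 3DF libraries sit below both dish conditions, and for ABCA1, ABCG1 and MYLIP they sit above, with ABCA1 at 77.4 to 102 FPKM in 3DF.

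The collagen genes were lower in 3DF at most loci that changed. Of 34 collagen genes tested, 18 fell, 1 rose and 15 were not called, with a median log2 fold change of -1.08. COL1A1, the main fibril-forming chain of the stroma (chromosome 19, 37474894 to 37490691 in oryCun2), measured 6092, 5733 and 7304 FPKM in 3DF and 19544, 16792 and 17361 FPKM in 2DC_L, a log2 fold change of -1.49 ± 0.20 (adjusted p = 0.000797, edgeR). COL1A1 had the largest fall in FPKM among the DEGs. COL1A2, its partner chain, had 7472, 7048 and 7840.2 FPKM in 3DF and 16400.03, 13669.9 and 16186 FPKM in 2DC_L, a log2 fold change of -1.05 ± 0.19 (adjusted p = 0.00376, edgeR). COL1A2 missed the limit on the fold change when scaled by total counts alone and with the library-name prefix as a block, at -0.88 and -0.92. Among the type V chains, which set fibril diameter, COL5A3 fell from 32.5, 34.8 and 18.9 FPKM to 0.898, 1.68 and 0.905 FPKM, a log2 fold change of -4.63 ± 0.33 (adjusted p = 2.78e-05, edgeR), while the far more abundant COL5A1 had 417, 550.5 and 701 FPKM in 3DF and 1181, 1106 and 916 FPKM in 2DC_L, a log2 fold change of -0.94 ± 0.21 (adjusted p = 0.011, edgeR) under the limit. COL3A1, a chain of repair matrix, was low throughout, at 0.243, 0.204 and 0.31 FPKM in 3DF and 2.18, 1.95 and 1.68 FPKM in 2DC_L, a log2 fold change of -2.94 ± 0.23 (adjusted p = 4.98e-05, edgeR).

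Collagens of basement membranes also fell. COL4A3, the most abundant of the type IV chains here, measured 45.3, 41.7 and 35.3 FPKM in 3DF and 253, 207 and 433 FPKM in 2DC_L, a log2 fold change of -2.86 ± 0.27 (adjusted p = 0.000118, edgeR). COL4A1 and COL4A2, the ubiquitous type IV pair, measured 0.463, 1.02 and 0.622 FPKM and 0.271, 0.637 and 0.418 FPKM in 3DF and had log2 fold changes of -2.07 and -2.12. COL6A1, of the beaded filaments, was not called, at 1672, 2134 and 2294 FPKM in 3DF and 1832, 1901 and 1506 FPKM in 2DC_L, a log2 fold change of 0.22 ± 0.18 (adjusted p = 0.405, edgeR). COL17A1, a transmembrane collagen of epithelial hemidesmosomes, was the only one of the 34 that rose, from 0.0693, 0.0767 and 0.131 FPKM in 2DC_L to 0.479, 1.23 and 0.875 FPKM in 3DF, a log2 fold change of 3.27 ± 0.42 (adjusted p = 0.000672, edgeR).

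The enzymes that modify and crosslink collagen followed the chains. Of 22 tested, 11 fell and 0 rose, with a median of -1.0, and 8 of 22 fell without 3DF replicate 1 and also with total counts as the scale. LOX, the lysyl oxidase, measured 149, 111 and 115 FPKM in 3DF and 506, 451 and 529 FPKM in 2DC_L, a log2 fold change of -1.98 ± 0.16 (adjusted p = 5.96e-05, edgeR). LOXL4, of the same family, had 2.35, 2.07 and 2.09 FPKM in 3DF and 34.1, 34.8 and 20.6 FPKM in 2DC_L, a log2 fold change of -3.78 ± 0.22 (adjusted p = 1.17e-05, edgeR). P4HA1 and P4HA3, catalytic subunits of prolyl 4-hydroxylase, had log2 fold changes of -1.24 and -4.93, and P4HA3 stood at 0.0393, 0.087 and 0.0974 FPKM in 3DF against 1.82, 2.07 and 3.06 FPKM in 2DC_L.

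Of 15 laminin and basement membrane genes, 5 fell and 2 rose. With the library-name prefix as a block 8 fell and 1 rose, and 1 rose without 2DC_L replicate 1 or 3DF replicate 2. NID2, the linker nidogen-2, separated widely, with 0.93, 0.926 and 0.90 FPKM in 3DF and 47.2, 31.9 and 40.5 FPKM in 2DC_L, a log2 fold change of -5.43 ± 0.19 (adjusted p = 6.33e-07, edgeR). HSPG2, perlecan, measured 13.1, 20.9 and 25.1 FPKM in 3DF and 64.1, 59.2 and 81.4 FPKM in 2DC_L, a log2 fold change of -1.79 ± 0.24 (adjusted p = 0.000761, edgeR). The laminin chain LAMC3 rose to 0.641, 1.23 and 1.1 FPKM from 0.243, 0.248 and 0.247 FPKM, a log2 fold change of 2.00 ± 0.32 (adjusted p = 0.00201, edgeR).

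Of 31 matricellular and fibrosis-linked genes, 14 fell and 2 rose, with a median of -0.94. TNC, tenascin-C of healing wounds (chromosome Un0001, 12560675 to 12654800 in oryCun2), fell from 59.4, 64.8 and 20.1 FPKM in 2DC_L to 0.422, 0.441 and 0.325 FPKM in 3DF, a log2 fold change of -6.92 ± 0.48 (adjusted p = 2.52e-05, edgeR). FN1, fibronectin, measured 196, 284 and 258 FPKM in 3DF and 714, 1003 and 1052 FPKM in 2DC_L, a log2 fold change of -1.91 ± 0.21 (adjusted p = 0.000293, edgeR). SPARC, a collagen-binding glycoprotein, had 4434, 4162 and 4565 FPKM in 3DF and 10665, 9094 and 10275 FPKM in 2DC_L, a log2 fold change of -1.19 ± 0.16 (adjusted p = 0.000927, edgeR). POSTN, periostin, was low in both conditions, with 1.12, 0.581 and 0.587 FPKM in 3DF and 5.06, 3.62 and 6.34 FPKM in 2DC_L, and had a log2 fold change of -2.70 ± 0.30 (adjusted p = 0.000286, edgeR). TGFBI, a corneal adhesion protein, measured 59.5, 62.6 and 73.9 FPKM in 3DF and 291, 314 and 238 FPKM in 2DC_L, a log2 fold change of -2.10 ± 0.16 (adjusted p = 4.26e-05, edgeR). The 2 that rose were CTHRC1, a secreted protein of matrix remodelling, from 0.68, 1.27 and 3.28 FPKM to 12.4, 16.4 and 10.1 FPKM, and MATN4, matrilin-4, from 19.9, 23.3 and 29.5 FPKM to 66.8, 119.6 and 57 FPKM. CTHRC1 had a log2 fold change of 3.00 ± 0.46 (adjusted p = 0.0016, edgeR) and MATN4 a log2 fold change of 1.75 ± 0.27 (adjusted p = 0.00177, edgeR).

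Of 29 contractile and actin cytoskeleton genes, 8 fell and 0 rose by edgeR, with a median of -0.55. With DESeq2, total counts as the scale, the replicate block or no filter, and without 3DF replicate 1 or 2DC_L replicate 3, 1 was higher. ACTA2, smooth muscle actin of myofibroblasts, was low in both conditions, with 0.18, 0.0666 and 0.112 FPKM in 3DF and 1.44, 3.9 and 0.82 FPKM in 2DC_L, and had a log2 fold change of -4.06 ± 0.69 (adjusted p = 0.00291, edgeR). MYL9, the regulatory myosin light chain, had 2.75, 7.03 and 4.0 FPKM in 3DF and 40.5, 49.1 and 33.6 FPKM in 2DC_L, a log2 fold change of -3.16 ± 0.31 (adjusted p = 0.000155, edgeR). TAGLN, an actin-bundling protein, measured 0.414, 0.306 and 0.642 FPKM in 3DF and 4.13, 6.06 and 2.04 FPKM in 2DC_L, a log2 fold change of -3.19 ± 0.46 (adjusted p = 0.00118, edgeR). VIM, the intermediate filament vimentin, measured 577, 584 and 554 FPKM in 3DF and 1136, 1359 and 1641 FPKM in 2DC_L, a log2 fold change of -1.27 ± 0.16 (adjusted p = 0.000626, edgeR). ACTB, cytoplasmic actin, overlapped between the conditions, at 597, 777 and 544 FPKM in 3DF and 718, 739 and 798 FPKM in 2DC_L, a log2 fold change of -0.23 ± 0.16 (adjusted p = 0.325, edgeR).

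A list of genes linked to the mechanosensitive YAP/TAZ and SRF regulators had 4 of 24 lower and 3 higher, against 5.98% and 4.24% of all genes tested. The list mixes targets with regulators such as TEAD1, MYOCD and WWC1, and it leaves out the targets CTGF and CYR61. Its counts therefore do not measure the targets alone. ANKRD1, a strain-responsive nuclear protein, measured 0, 0.0231 and 0.0258 FPKM in 3DF and 0.687, 0.462 and 0.473 FPKM in 2DC_L, and was lower 35.9-fold (95% exact counting interval 9.61 to 302). CTGF, a secreted YAP target counted in the early response list, fell from 120.4, 151 and 149 FPKM in 2DC_L to 7.94, 12.9 and 7.1 FPKM in 3DF, a log2 fold change of -3.91 ± 0.24 (adjusted p = 1.39e-05, edgeR). FHL1, a LIM protein, rose from 1.31, 1.83 and 1.84 FPKM to 13.6, 16.7 and 9.45 FPKM, a log2 fold change of 3.01 ± 0.24 (adjusted p = 5.47e-05, edgeR).

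**Figure D4:**
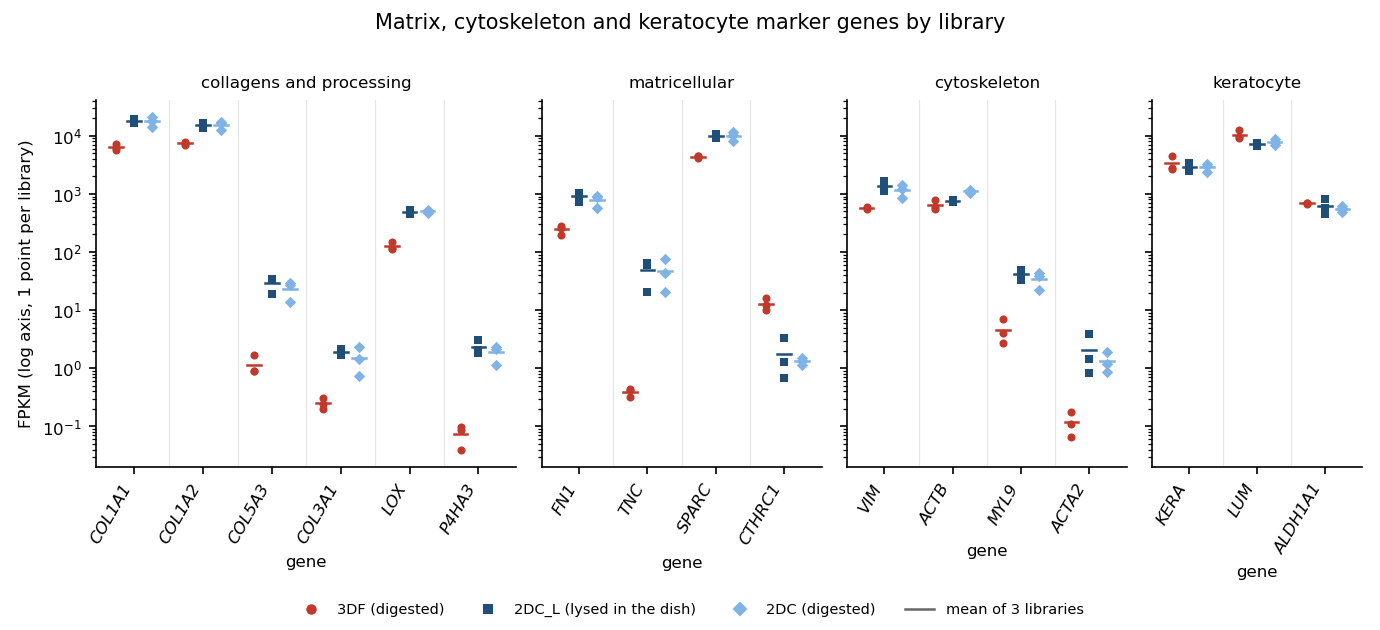
FPKM of matrix, cytoskeleton and keratocyte marker genes (vertical axis, log scale) in each library of 3DF, 2DC_L and 2DC, with horizontal lines at the means. TNC, COL5A3 and P4HA3 show the widest gaps, with TNC at 0.325 to 0.441 FPKM in 3DF and 20.1 to 64.8 FPKM in 2DC_L, whereas KERA and ALDH1A1 overlap between 3DF and 2DC_L.

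Of 13 genes tested in the keratocyte list, 0 fell and 1 rose, with a median of 0.41. The gene that rose was KRT3, a keratin of the corneal epithelium that is also on the epithelial list. No other member was called. Without 3DF replicate 1, 3 members of the list rose. KERA, keratocan, measured 4555, 2756 and 2706 FPKM in 3DF and 2808, 2502 and 3351 FPKM in 2DC_L, a log2 fold change of 0.21 ± 0.23 (adjusted p = 0.537, edgeR). LUM, lumican, had 12432, 9326 and 9175 FPKM in 3DF and 7387, 6526 and 7299 FPKM in 2DC_L, a log2 fold change of 0.55 ± 0.18 (adjusted p = 0.0609, edgeR). Neither test passed the threshold, which does not show that the levels are equal. ALDH1A1, a corneal crystallin, had 668, 697 and 699 FPKM in 3DF and 457, 571 and 810.5 FPKM in 2DC_L, a log2 fold change of 0.17 ± 0.20 (adjusted p = 0.565, edgeR). CD34, a surface marker of quiescent keratocytes, was higher by less than the limit on the fold change, at 113, 119 and 115 FPKM against 72.9, 62.6 and 72.8 FPKM, a log2 fold change of 0.74 ± 0.12 (adjusted p = 0.002, edgeR). B3GNT7, an enzyme of keratan sulfate chains, measured 94.4, 142 and 115 FPKM in 3DF and 60.4, 72 and 44.8 FPKM in 2DC_L, a log2 fold change of 0.99 ± 0.20 (adjusted p = 0.00804, edgeR), just under that limit.

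None of the 15 integrin genes tested by edgeR was called, although 4 had an adjusted p of at most 0.05. Without 3DF replicate 1, or with total counts as the scale, 1 was higher. Their median log2 fold change was -0.12 and turned to 0.04 when scaled by total counts alone. ITGB1, the shared partner of the collagen and fibronectin receptors, measured 170.1, 162 and 153 FPKM in 3DF and 248, 238 and 312 FPKM in 2DC_L, a log2 fold change of -0.72 ± 0.14 (adjusted p = 0.0065, edgeR). ITGA5, the fibronectin receptor chain, had 10.8, 12.3 and 14.8 FPKM in 3DF and 18.6, 19.8 and 13.3 FPKM in 2DC_L, a log2 fold change of -0.44 ± 0.18 (adjusted p = 0.109, edgeR).

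Of 39 matrix proteases and inhibitors, 11 fell and 4 rose, against 5.98% and 4.24% of all genes tested. Their median, -0.07, also changed sign with total counts as the scale, to 0.10, where 7 rose. MMP14, the membrane-bound collagenase, rose from 68.1, 58.2 and 66.5 FPKM to 98.3, 181 and 200.02 FPKM, a log2 fold change of 1.32 ± 0.24 (adjusted p = 0.00402, edgeR). MMP2, the gelatinase that MMP14 activates, had 1229, 1331 and 1537 FPKM in 3DF and 804, 861 and 661 FPKM in 2DC_L, a log2 fold change of 0.82 ± 0.17 (adjusted p = 0.00722, edgeR) under the limit. The inhibitors of these enzymes went both ways. TIMP1 measured 128, 162 and 155 FPKM in 3DF and 816, 714 and 422 FPKM in 2DC_L, a log2 fold change of -2.14 ± 0.24 (adjusted p = 0.000293, edgeR), and TIMP3 had a log2 fold change of -1.25 ± 0.14 (adjusted p = 0.000287, edgeR). TIMP2, another of these inhibitors, lay above 2DC_L in every 3DF library, at 483, 574 and 561 FPKM against 291, 280.4 and 270.1 FPKM, a log2 fold change of 0.94 ± 0.14 (adjusted p = 0.00115, edgeR), just short of a DEG. ADAM33, a membrane metalloprotease, fell from 5.35, 4.5 and 6.71 FPKM to 0.22, 0.421 and 0.199 FPKM, a log2 fold change of -4.29 ± 0.29 (adjusted p = 2.49e-05, edgeR).

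Cell adhesion genes changed in both directions, with 13 of 31 cadherin, protocadherin, connexin and junction genes lower and 4 higher. CDH8, a classical cadherin, fell from 39.2, 36.7 and 57.9 FPKM in 2DC_L to 4.71, 3.96 and 3.88 FPKM in 3DF, a log2 fold change of -3.41 ± 0.20 (adjusted p = 1.12e-05, edgeR). NCAM1, the neural cell adhesion molecule, measured 2.42, 3.73 and 3.5 FPKM in 3DF and 24.3, 24.5 and 30.9 FPKM in 2DC_L, a log2 fold change of -3.04 ± 0.19 (adjusted p = 1.54e-05, edgeR). The connexin GJB5 had a log2 fold change of -1.98, while GJA1, another connexin, at 349, 267 and 249 FPKM in 3DF and 336, 319 and 351 FPKM in 2DC_L, had a log2 fold change of -0.22 ± 0.16 (adjusted p = 0.346, edgeR). PCDH1 and PCDH18, protocadherins, rose, and PCDH1 measured 4.47, 6.5 and 6.38 FPKM in 3DF against 0.663, 1.11 and 0.596 FPKM in 2DC_L, a log2 fold change of 2.86 ± 0.26 (adjusted p = 0.000102, edgeR).

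Of 32 growth factors and receptors, 8 fell and 5 rose, against 5.98% and 4.24% of all genes tested. FGF1 fell from 2.48, 2.01 and 6.53 FPKM in 2DC_L to 0.0922, 0.102 and 0.0229 FPKM in 3DF, a log2 fold change of -5.58 ± 0.60 (adjusted p = 0.00024, edgeR), and PDGFB had a log2 fold change of -2.70 ± 0.28 (adjusted p = 0.000215, edgeR). FGF10, a paracrine factor for epithelium, rose from 43.3, 47 and 47.7 FPKM to 123, 94.3 and 94.9 FPKM, a log2 fold change of 1.18 ± 0.14 (adjusted p = 0.000431, edgeR). VEGFA and its receptor KDR both rose. VEGFA measured 83.6, 112 and 88.5 FPKM in 3DF and 28.5, 32.6 and 20.1 FPKM in 2DC_L, a log2 fold change of 1.81 ± 0.20 (adjusted p = 0.000286, edgeR), and KDR 115, 112 and 115 FPKM and 45.7, 41.3 and 37.2 FPKM, a log2 fold change of 1.46 ± 0.13 (adjusted p = 8.25e-05, edgeR). Glycolysis and hypoxia-linked genes, a list that holds VEGFA, had 2 of 31 higher and 1 lower, near the 4.24% and 5.98% of all genes tested. Total counts as the scale moved their median from -0.05 to 0.11 and gave 4 higher, as did leaving out 2DC_L replicate 3, and 3 were lower without 3DF replicate 2.

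In the TGF-beta and BMP list, 9 of 31 genes rose and 2 fell, with a median of 0.40. With the library-name prefix as a block 5 rose, and 4 with limma on log2(FPKM + 1). ID1, ID2 and ID3, inhibitors of differentiation that BMP signalling raises, all rose. ID3 measured 66.9, 126 and 55.6 FPKM in 3DF and 5.0, 5.82 and 4.52 FPKM in 2DC_L, a log2 fold change of 4.01 ± 0.32 (adjusted p = 5.1e-05, edgeR). ID1 had 95.3, 99.6 and 78.1 FPKM in 3DF and 25.9, 26.7 and 11.5 FPKM in 2DC_L, a log2 fold change of 2.08 ± 0.28 (adjusted p = 0.000833, edgeR). ID3 was also higher in 2DC, at 12.1, 19.3 and 23 FPKM, than in 2DC_L, a log2 fold change of 1.81 ± 0.24 (adjusted p = 0.0192, edgeR), and higher in 3DF than in 2DC, a log2 fold change of 2.19 ± 0.34 (adjusted p = 0.00417, edgeR). The BMP ligands went both ways, with GDF5 higher, a log2 fold change of 1.97 ± 0.25 (adjusted p = 0.000551, edgeR), and BMP6 lower, a log2 fold change of -1.26 ± 0.15 (adjusted p = 0.00045, edgeR). ENG, a co-receptor of this family, fell from 97.8, 113 and 68.5 FPKM to 29.3, 43.2 and 38.1 FPKM, a log2 fold change of -1.34 ± 0.21 (adjusted p = 0.00183, edgeR).

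In the Wnt list 4 of 31 fell and 2 rose, against 5.98% and 4.24% of all genes tested. The median changed sign with the scaling, from -0.05 to 0.11. DKK3, a secreted protein of the Dickkopf family, fell from 220.4, 281 and 165 FPKM in 2DC_L to 42.5, 48.7 and 55.1 FPKM in 3DF, a log2 fold change of -2.19 ± 0.21 (adjusted p = 0.000118, edgeR), and WNT11 had a log2 fold change of -2.01 ± 0.19 (adjusted p = 0.000111, edgeR). In the axon guidance list 9 of 40 fell and 5 rose, against the same shares of all genes tested, and 6 fell and 3 rose without 2DC_L replicate 3. SEMA3C, a secreted repellent, measured 50.5, 36.2 and 35.9 FPKM in 3DF and 128, 132 and 203 FPKM in 2DC_L, a log2 fold change of -1.91 ± 0.22 (adjusted p = 0.000323, edgeR), whereas NTN1, netrin-1, rose from 4.43, 9.52 and 6.32 FPKM to 23.2, 28.1 and 28.9 FPKM, a log2 fold change of 1.98 ± 0.25 (adjusted p = 0.000587, edgeR). Of 9 genes for IGF-binding proteins and their regulators, 3 fell and 0 rose, with IGFBP5 at 25.1, 24.4 and 23.2 FPKM in 3DF and 70.9, 66.3 and 83.1 FPKM in 2DC_L, a log2 fold change of -1.60 ± 0.13 (adjusted p = 5.57e-05, edgeR).

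Of 29 inflammatory genes, 9 rose and 3 fell (1 without 2DC_L replicate 3), with a median of 0.15. TLR4, the receptor for bacterial lipopolysaccharide, rose from 0.507, 0.973 and 1.05 FPKM in 2DC_L to 14.5, 11.7 and 14.3 FPKM in 3DF, a log2 fold change of 4.02 ± 0.25 (adjusted p = 1.54e-05, edgeR), and stood at 0.874, 0.92 and 0.87 FPKM in 2DC. CCL2, a chemokine for monocytes, measured 275, 259.8 and 209 FPKM in 3DF, 25.2, 37.7 and 31.3 FPKM in 2DC_L and 69.2, 59.6 and 69.5 FPKM in 2DC. CCL2 was higher in 3DF than in 2DC_L, a log2 fold change of 2.98 ± 0.18 (adjusted p = 1.38e-05, edgeR), higher in 2DC than in 2DC_L, a log2 fold change of 1.07 ± 0.15 (adjusted p = 0.0234, edgeR), and higher in 3DF than in 2DC, a log2 fold change of 1.90 ± 0.14 (adjusted p = 0.000161, edgeR). The interferon list had 1 of 24 higher and 2 lower, near the 4.24% and 5.98% of all genes tested, with a median of -0.06 that turned to 0.10 with total counts as the scale. Without 3DF replicate 1 there were 3 higher, without 2DC_L replicate 1 or 3 there were 0 higher, and without 3DF replicate 3 or 2DC_L replicate 3 there was 1 lower.

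The early response genes held the largest increases of the comparison. Of 22 transcription factors tested, 18 rose and 0 fell, with a median log2 fold change of 3.40, and of 31 feedback and effector genes 21 rose and 2 fell, with a median of 1.52. FOS (chromosome 20, 29860066 to 29863336 in oryCun2), a subunit of the AP-1 dimer, measured 809, 1361 and 688 FPKM in 3DF and 0.311, 0.251 and 0.343 FPKM in 2DC_L, a log2 fold change of 11.64 ± 0.39 (adjusted p = 6.33e-07, edgeR) and the largest rise of all. FOSB, of the same family, had 268, 547 and 266 FPKM in 3DF and 0.696, 0.699 and 0.397 FPKM in 2DC_L, a log2 fold change of 9.19 ± 0.42 (adjusted p = 3.23e-06, edgeR). EGR1, a zinc-finger factor, had 699, 1015 and 607 FPKM in 3DF and 2.42, 2.17 and 3.17 FPKM in 2DC_L, a log2 fold change of 8.24 ± 0.29 (adjusted p = 7.67e-07, edgeR). JUN, the partner of FOS, measured 509, 1235 and 588 FPKM in 3DF and 29.2, 33.2 and 41.5 FPKM in 2DC_L, a log2 fold change of 4.49 ± 0.35 (adjusted p = 5.1e-05, edgeR). In 3DF replicate 2 was the highest library for each of these 4 genes, and the other 3DF libraries still lay above every 2DC_L library.

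No digestion preceded the lysis of 2DC_L, and the digested dish gives the levels of these genes after digestion without the 3D matrix. In 2DC, 19 of the 53 early response genes were higher than in 2DC_L and 0 were lower, against 0.257% of all genes tested that were higher. Between 3DF and 2DC, 17 were higher and 5 lower in 3DF, against 3.24% higher and 4.32% lower among all genes tested. The genes were sorted by the test of 3DF against 2DC, which compares digested samples only. Handling still differed, as the 3DF matrices were lifted into tubes and rocked and their cells pelleted, whereas the 2DC dishes were digested in place. The part of this handling was not tested.

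For EGR1, EGR2, EGR3, IER2, ZFP36 and BTG2 that test was not called. EGR1 measured 633, 664 and 573 FPKM in 2DC, a log2 fold change of 7.93 ± 0.18 (adjusted p = 2.76e-07, edgeR) over 2DC_L, and 3DF against 2DC gave a log2 fold change of 0.30 ± 0.20 (adjusted p = 0.355, edgeR). ZFP36, which destabilises cytokine transcripts, had 96.4, 193 and 93.2 FPKM in 3DF, 8.24, 8.03 and 7.11 FPKM in 2DC_L and 136, 142 and 137 FPKM in 2DC. For ZFP36 the log2 fold change was 4.14 between 2DC and 2DC_L and -0.13 between 3DF and 2DC.

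Another set was higher in 3DF than in either dish condition. FOS stood at 237, 275 and 214 FPKM in 2DC, and 3DF exceeded this with a log2 fold change of 1.97 ± 0.26 (adjusted p = 0.00179, edgeR). FOSB measured 18.5, 19.5 and 15.1 FPKM in 2DC, and 3DF exceeded this with a log2 fold change of 4.34 ± 0.32 (adjusted p = 0.000161, edgeR). KLF4, a zinc-finger factor, measured 129.8, 253 and 154 FPKM in 3DF, 13, 11.8 and 17 FPKM in 2DC_L and 28.3, 28.9 and 33.8 FPKM in 2DC, with a log2 fold change of 2.55 ± 0.25 (adjusted p = 0.000475, edgeR) between 3DF and 2DC. For several genes of this set the digested and directly lysed dishes were not called different. DUSP6, a phosphatase that damps ERK, had 8.13, 13.8 and 9.72 FPKM in 3DF, 0.47, 0.828 and 0.66 FPKM in 2DC_L and 0.924, 0.89 and 2.78 FPKM in 2DC, with a log2 fold change of 1.22 ± 0.48 (adjusted p = 0.854, edgeR) for 2DC against 2DC_L and a log2 fold change of 2.79 ± 0.44 (adjusted p = 0.00399, edgeR) for 3DF against 2DC. ATF3, a stress factor, measured 10.7, 19 and 6.46 FPKM in 3DF, 1.27, 1.01 and 0.792 FPKM in 2DC_L and 1.53, 1.2 and 2.48 FPKM in 2DC, with a log2 fold change of 2.79 ± 0.42 (adjusted p = 0.00328, edgeR) between 3DF and 2DC. HES1, a Notch target, had 7.71, 16.8 and 5.47 FPKM in 3DF, 0.55, 0.611 and 1.04 FPKM in 2DC_L and 1.5, 1.41 and 1.53 FPKM in 2DC, with a log2 fold change of 2.74 ± 0.41 (adjusted p = 0.00326, edgeR) between 3DF and 2DC.

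A further set was lower in 3DF than in the digested dish. CYR61, a matricellular YAP target, measured 155, 336 and 94.5 FPKM in 3DF, 89.6, 103 and 114 FPKM in 2DC_L and 941, 1024 and 972 FPKM in 2DC. For CYR61 edgeR gave a log2 fold change of 0.94 ± 0.38 (adjusted p = 0.104, edgeR) between 3DF and 2DC_L, but a log2 fold change of 3.26 ± 0.12 (adjusted p = 5.38e-06, edgeR) between 2DC and 2DC_L and a log2 fold change of -2.33 ± 0.41 (adjusted p = 0.00668, edgeR) between 3DF and 2DC. DUSP2, another phosphatase of the MAP kinases, had 4.05, 9.68 and 5.18 FPKM in 3DF, 0.0867, 0.133 and 0.0378 FPKM in 2DC_L and 15.1, 18.6 and 12 FPKM in 2DC, a log2 fold change of 6.04 ± 0.49 (adjusted p = 5.96e-05, edgeR) between 3DF and 2DC_L and a log2 fold change of -1.28 ± 0.32 (adjusted p = 0.0281, edgeR) between 3DF and 2DC. CTGF measured 104, 170.04 and 281 FPKM in 2DC and was lower in 3DF than there, a log2 fold change of -4.32 ± 0.40 (adjusted p = 0.000389, edgeR).

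**Figure D5:**
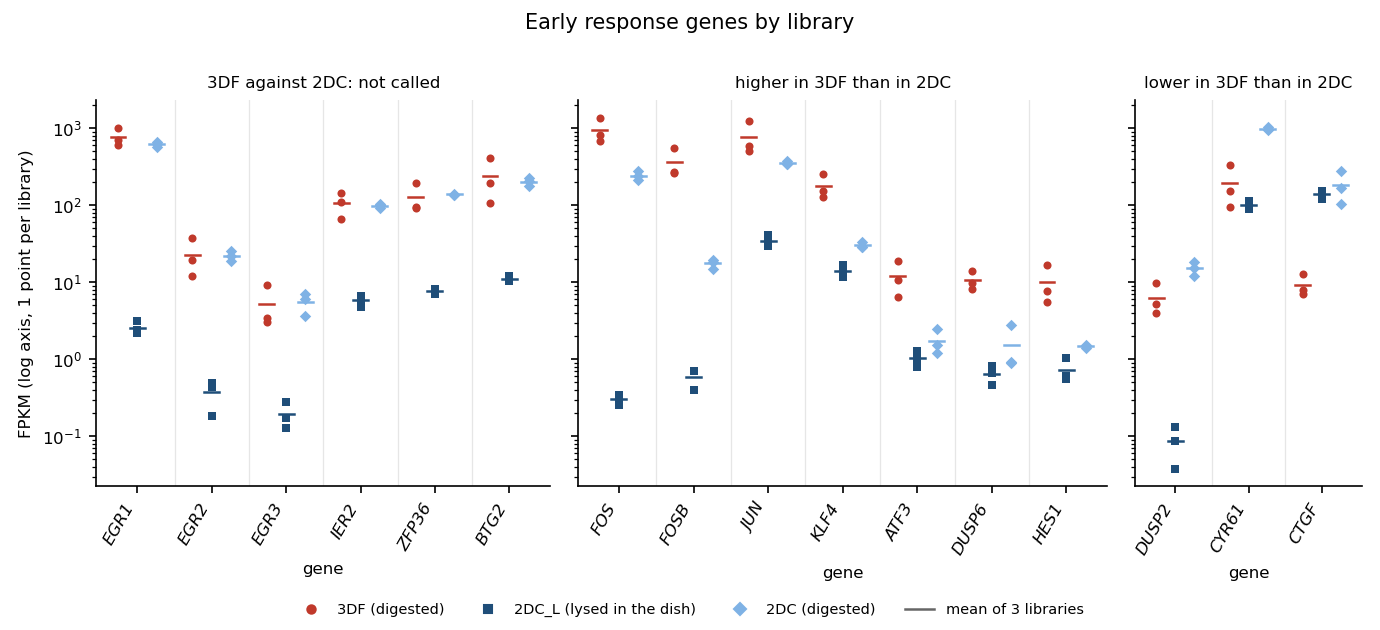
FPKM of early response genes (vertical axis, log scale) in each library of 3DF, 2DC_L and 2DC, with horizontal lines at the means, grouped by the edgeR test of 3DF against 2DC. EGR1 lies at 607 to 1015 FPKM in 3DF, 573 to 664 in 2DC and 2.17 to 3.17 in 2DC_L, whereas FOSB in 3DF is above 2DC and CYR61 in 3DF is below it.

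Other stress programmes moved less. None of 12 heat shock genes was called by edgeR on all 6 libraries, and their median was 0.23. With DESeq2, with total counts as the scale, without the filter and in all fits that left out a library other than 3DF replicate 1, 1 of them was higher. HSPA8, the constitutive chaperone, had 328, 267 and 266 FPKM in 3DF and 179, 205 and 189.8 FPKM in 2DC_L, a log2 fold change of 0.59 ± 0.14 (adjusted p = 0.0134, edgeR) under the limit on the fold change. Of 23 genes of the unfolded protein response, 2 rose and 5 fell, against 4.24% and 5.98% of all genes tested. Their median, -0.08, turned to 0.09 with total counts as the scale. DDIT3, a factor of prolonged stress, rose from 12.5, 16 and 14.6 FPKM in 2DC_L to 49.7, 64.4 and 46.7 FPKM in 3DF, a log2 fold change of 1.90 ± 0.16 (adjusted p = 7.47e-05, edgeR), and was at 31.1, 32.9 and 36.3 FPKM in 2DC, a log2 fold change of 1.22 ± 0.11 (adjusted p = 0.00184, edgeR) over 2DC_L. HSPA5, the chaperone BiP, had 162, 139 and 155 FPKM in 3DF and 193, 205 and 208 FPKM in 2DC_L, a log2 fold change of -0.41 ± 0.12 (adjusted p = 0.0383, edgeR).

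Markers of the corneal epithelium were detected at low levels in every 3DF library. Of 25 such genes with counts reported, 12 were tested, of which 9 rose and 0 fell, with a median of 3.12. Genes detected in 3DF alone pass the filter on low counts only through 3DF, so that this count and median describe the tested members only. The summed level of the 25 ranged from 15.4 to 23.1 FPKM in 3DF, from 1.65 to 2.79 FPKM in 2DC_L and from 1.47 to 2.69 FPKM in 2DC, and 5 of them were at 0 in every 2DC_L library. KRT12 (chromosome 19, 41920699 to 41925846 in oryCun2), the keratin that defines corneal epithelium, measured 2.47, 4.4 and 3.72 FPKM in 3DF and had no count in 2DC_L or 2DC. KRT12 was at least 49.9-fold higher in 3DF, taking 3 counts per library as the floor. KRT5, a basal keratin, measured 3.54, 6.19 and 3.57 FPKM in 3DF and 0.148, 0.0422 and 0.647 FPKM in 2DC_L, a log2 fold change of 4.18 ± 0.64 (adjusted p = 0.00169, edgeR). KRT3, the partner of KRT12, had 0.988, 1.52 and 1.25 FPKM in 3DF and 0.0872, 0.0297 and 0.0507 FPKM in 2DC_L, a log2 fold change of 4.41 ± 0.42 (adjusted p = 0.000135, edgeR). CRCT1, a protein of cornified epithelium, had 2.81, 2.61 and 2.49 FPKM in 3DF and 0.0435, 0 and 0 FPKM in 2DC_L, a ratio of 155-fold (95% exact counting interval 27.4 to 6178). CDH1, the epithelial cadherin, measured 0.186, 0.137 and 0.274 FPKM in 3DF and 0.00768, 0 and 0 FPKM in 2DC_L, a ratio of 65.2-fold (95% exact counting interval 11.3 to 2617). With the library-name prefix as a block, in a fit over all 5 conditions, 4 of the 12 remained higher. CDH1, CLDN4, CLDN7, DSP and KRT3 were no longer called. The part of epithelial cells in the other differences between 3DF and 2DC_L was not tested.

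Markers of other cell types differed less, and their counts stand beside 4.24% higher and 5.98% lower among all genes tested. The leukocyte list had 4 of 14 genes tested and 0 called by edgeR, although 1 was lower with DESeq2, with either block, without the filter and without 3DF replicate 2. It had PTPRC at 0 to 0.0513 FPKM in 3DF and 0.0127 to 0.133 FPKM in 2DC_L, and its summed level ranged from 4.48 to 5.84 FPKM in 3DF and from 5.12 to 9.56 FPKM in 2DC_L. Of 7 vascular endothelial markers tested, KDR and EMCN rose and TIE1 fell, the summed level of the list was 194 to 211 FPKM in 3DF and 97.1 to 116 FPKM in 2DC_L, and CLDN5 was at 0 in all 6 libraries. TIE1 had a log2 fold change of -2.30 ± 0.52 (adjusted p = 0.0125, edgeR) and lost its call without 2DC_L replicate 2. Of 10 Schwann cell and melanocyte markers CDH19 and DCT rose, and the summed level was 18.3 to 24.6 FPKM in 3DF and 12.2 to 17.8 FPKM in 2DC_L, with TYR at 0 throughout. DCT had a log2 fold change of 1.46 ± 0.40 (adjusted p = 0.0268, edgeR) and CDH19 a log2 fold change of 1.26 ± 0.34 (adjusted p = 0.0262, edgeR), and both lost their call without 3DF replicate 1, 2DC_L replicate 2 or 2DC_L replicate 3. Of 7 corneal endothelial markers tested 3 fell and 0 rose, and COL8A2 and SLC4A4 among them had log2 fold changes of -1.47 and -1.38. The summed level of the list was 290 to 348 FPKM in 3DF and 575 to 690 FPKM in 2DC_L, with ZP4 and CLRN1 at 0 throughout. COL8A2 is also counted among the collagens, and KDR of the vascular list among the growth factor receptors. The summed levels therefore do not measure these cell types alone. The part of these cell types in the differences was not tested.

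By the rule of the largest fold changes, the 12 leading rises in 3DF were FOS, KRT12, FOSB, EGR1, DEFB1, CRCT1, FOXJ1, DUSP2, EGR2, PLET1, KRT17 and EGR3. Besides early response and epithelial genes these included FOXJ1, a factor of motile cilia, at 1.05, 3.03 and 1.14 FPKM in 3DF and 0.0427, 0 and 0 FPKM in 2DC_L, a ratio of 104-fold (95% exact counting interval 35.2 to 507). The antimicrobial peptide DEFB1 was at 2.19, 1.51 and 2.37 FPKM in 3DF and no count in 2DC_L, which made it at least 6.83-fold higher. PLET1, a cell surface protein, measured 1.5, 1.4 and 1.47 FPKM in 3DF and 0.0228, 0 and 0.12 FPKM in 2DC_L, a log2 fold change of 5.18 ± 0.61 (adjusted p = 0.000394, edgeR). KRT17, a keratin of activated epithelium, had 2.88, 4.49 and 2.71 FPKM in 3DF and 0.0451, 0 and 0.315 FPKM in 2DC_L, a log2 fold change of 5.13 ± 0.69 (adjusted p = 0.000802, edgeR).

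The 12 leading falls were CENPF, MKI67, TCF19, CDK1, SLCO1B3, SHCBP1, TNC, KIAA0101, CDC45, PTX3, MYBL2 and TK1, of which most act in division. The exceptions included SLCO1B3, an organic anion transporter (chromosome 8, 18828099 to 18892742 in oryCun2), which fell from 13.3, 14.3 and 9.92 FPKM in 2DC_L to 0.116, 0.0914 and 0.0205 FPKM in 3DF, a log2 fold change of -7.27 ± 0.34 (adjusted p = 3.23e-06, edgeR). PTX3, a soluble pattern recognition protein, fell from 52.8, 67.6 and 55.3 FPKM to 0.522, 0.685 and 0.60 FPKM, a log2 fold change of -6.60 ± 0.19 (adjusted p = 4.67e-07, edgeR).

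By the difference in FPKM, the leading rises were APOD, FOS, ANGPTL4, EGR1, JUN and APOE and the leading falls COL1A1, COL1A2, SPARC, S100A10, VIM and CLU. APOD, a small lipid-binding apolipoprotein, measured 3099.9, 2759 and 3706 FPKM in 3DF and 1108, 1007 and 1004 FPKM in 2DC_L, a log2 fold change of 1.62 ± 0.16 (adjusted p = 0.000147, edgeR). ANGPTL4, an inhibitor of lipoprotein lipase, had 741, 953 and 821 FPKM in 3DF, 46.8, 41.3 and 30.7 FPKM in 2DC_L and 186, 124 and 123 FPKM in 2DC. ANGPTL4 was higher in 3DF than in 2DC_L, a log2 fold change of 4.40 ± 0.21 (adjusted p = 3.53e-06, edgeR), higher in 2DC than in 2DC_L, a log2 fold change of 1.86 ± 0.21 (adjusted p = 0.00839, edgeR), and higher in 3DF than in 2DC, a log2 fold change of 2.53 ± 0.20 (adjusted p = 0.000206, edgeR). S100A10, the annexin A2 partner, measured 573, 1135 and 967 FPKM in 3DF and 2461, 2293 and 2678 FPKM in 2DC_L, a log2 fold change of -1.47 ± 0.23 (adjusted p = 0.00178, edgeR). CLU, the extracellular chaperone clusterin, had 234, 461 and 371 FPKM in 3DF and 947, 1359.6 and 1107 FPKM in 2DC_L, a log2 fold change of -1.68 ± 0.25 (adjusted p = 0.0014, edgeR).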

How the data were processed

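Per the labels and the study's methods, libraries from total RNA were sequenced for the authors, reads were aligned to oryCun2 with HISAT2 2.0.5 and counted per gene with featureCounts 1.5.0-p3, and the authors deposited raw counts and FPKM for each gene and library. FPKM divides a count by gene length and by library depth, so it shifts when a few abundant genes take a larger share of the reads. Fold changes were computed here from the deposited counts with edgeR 4.0.16 (R 4.3.3): genes were kept by filterByExpr with a minimum count of 10, libraries were scaled by TMM, and the quasi-likelihood test was fitted to the 3 3DF and 3 2DC_L libraries without a block, with Benjamini-Hochberg adjustment over all genes tested. The standard error is the fold change divided by the square root of F. DEGs needed an adjusted p of at most 0.05 and |log2 fold change| of at least 1.

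Where a gene had no count in a group, a bound was computed with a floor of 3 counts per library, and with 1 to 3 counts in a group a count ratio is given with a 95% exact interval, which covers counting error only. Named genes were the 12 with the largest fold change and the 6 with the largest FPKM difference in each direction, among DEGs with a gene symbol, a mean of at least 1 FPKM in the higher condition and no overlap between the 6 libraries, together with members of 32 gene lists. The comparison and the lists were chosen with earlier results of these data known. The labels number the replicates, and deviations of same-numbered libraries correlated at -0.02, 0.05 and -0.18, so they were not treated as pairs. The block by library-name prefix groups libraries whose column names begin alike, and what a prefix stands for is not given in the sources used here. The prefixes were E6, E7 and E8 in 3DF and E2, E3 and E7 in 2DC_L. Only E7 is shared, by 3DF replicate 2 and 2DC_L replicate 3, whose deviations correlated at 0.007. Prefix and condition therefore largely coincide in the 6 libraries, and the check on replicate numbers does not address the prefix. Every fit with this block used all 15 libraries of the 5 conditions, not the 6 libraries alone. The filter and the spread between libraries therefore also differ from those of the main fit. In simulated counts for 13551 genes, 200 of them shifted by 2 on the log2 scale, edgeR recovered 94% and called 2 unchanged genes. These counts were drawn from the spread that edgeR itself estimated, with few genes changed and the direction of each drawn at random. They do not test the scaling on which the split of higher and lower genes rests.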

Additional observations from a re-analysis of the deposited data

How the results depend on the processing

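The number of DEGs was 1386 (575 higher, 811 lower in 3DF). It fell to 740 (317 and 423) with limma 3.58.1 on log2(FPKM + 1), where the pseudocount shrinks the fold changes of low genes, and rose to 3161 (1518 and 1643) without a limit on the fold change. DESeq2 1.42.0 called 1458, limma on log2(FPKM + 0.1) 1318, a filter at a mean of 1 CPM 1201 and no filter 1499. The fit over all 5 conditions called 1429, and the same fit with library-name prefix as a block 1320. Leaving out each library in turn gave 1233 to 1469 DEGs, 498 to 601 higher and 702 to 868 lower. The replicate numbers did not pair the libraries, and the fit with the replicate number as a block called 1383 (566 and 817). For 2DC against 2DC_L the counts of DEGs were 28 to 38 with a library left out and 37 with the replicate block, and for 3DF against 2DC 750 to 1028 and 1006.

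Of 136 called genes named by the text, 127 kept their call with each library left out in turn and 0 changed sign in any alternative run. These include genes picked for large fold changes or after their values were seen, so they do not stand for all DEGs. Of all 1386 DEGs, 961 kept their call with each library left out in turn. The sign turned for 3 genes that were not called, ALDH1A1 without 2DC_L replicate 1 (range over the libraries left out -0.0055 to 0.42), KERA without 3DF replicate 1 (range -0.0752 to 0.34) and CDK4 with total counts as the scale (0.11). At 17973130 counts or more per library, genes of 1 to 3 counts in a group have only the wide count ratios given above, and with 3 libraries per condition the spread of single genes is poorly known.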

Other observations

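The genes in this paragraph belong to no list and were chosen after their values were seen. They include 3 receptors, and other receptors were not tallied. ADCYAP1R1, the receptor of the peptide PACAP, had 33.7, 29.1 and 31 FPKM in 3DF and 4.0, 5.34 and 1.98 FPKM in 2DC_L, a log2 fold change of 3.04 ± 0.30 (adjusted p = 0.000166, edgeR). EDNRB, an endothelin receptor, rose from 1.54, 2.06 and 4.93 FPKM to 34, 19.6 and 28.7 FPKM, a log2 fold change of 3.31 ± 0.40 (adjusted p = 0.000479, edgeR), while its ligand EDN1 fell from 20.5, 20.02 and 19.6 FPKM to 1.52, 3.91 and 1.46 FPKM, a log2 fold change of -3.12 ± 0.34 (adjusted p = 0.000247, edgeR). The dopamine receptor DRD1 was low in both, with 2.92, 2.79 and 2.22 FPKM in 3DF and 0.158, 0.0614 and 0.131 FPKM in 2DC_L, a log2 fold change of 4.51 ± 0.31 (adjusted p = 2.52e-05, edgeR). In 2DC, EDNRB measured 2.32, 2.25 and 3.47 FPKM.

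The following genes were chosen in the same way. PDK4, which diverts pyruvate from oxidation, rose from 8.02, 5.84 and 4.63 FPKM in 2DC_L to 145, 100.1 and 98.8 FPKM in 3DF, a log2 fold change of 4.21 ± 0.25 (adjusted p = 1.24e-05, edgeR). ACSL1, an acyl-CoA synthetase, had a log2 fold change of 1.85 ± 0.13 (adjusted p = 2.77e-05, edgeR). The fatty acid carriers FABP3 and FABP5 fell, with log2 fold changes of -2.65 and -2.31. CAV1, the caveolar coat protein, dropped from 10.6, 9.23 and 10.9 FPKM to 0.398, 0.331 and 0.494 FPKM, a log2 fold change of -4.65 ± 0.19 (adjusted p = 1.8e-06, edgeR), and was at 4.37, 8.41 and 20.6 FPKM in 2DC. TINAGL1, a matricellular glycoprotein, fell from 33.9, 30.3 and 29.3 FPKM to 0.681, 1.23 and 0.623 FPKM, a log2 fold change of -5.20 ± 0.24 (adjusted p = 3.23e-06, edgeR). NQO1 and SRXN1, antioxidant enzymes, rose, with log2 fold changes of 1.64 and 1.84.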
